A study of Mus musculus with 6 samples.

Results

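Vessels of the cerebral cortex are wrapped by mural cells, which are pericytes on capillaries and smooth muscle cells on arterioles and veins. The expression of 9 genes that mark these cells was examined in the cortex of young adult and old adult mice, 9 of the 55421 genes in the files. Pdgfrb, Rgs5, Abcc9, Vtn, Anpep and Higd1b were taken as 6 pericyte genes, and Acta2, Tagln and Myh11 as 3 vascular smooth muscle genes. They were picked by name and each was found once in every library. The young adult group held 3 male WT C57BL/6J mice 6 months old (mice 10, 11 and 17), and the old adult group held 3 male WT C57BL/6J mice 24 months old (mice 2, 4 and 5). Mice of both ages ate one standard diet and were anesthetized with isoflurane before cervical dislocation. The cortex was microdissected and powdered whole, and 1 RNA-seq library was made per mouse, so that vessels were not isolated and the values are those of bulk tissue. In such tissue, fewer cells of a type and less RNA per cell cannot be told apart.

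Pericytes lie in the basement membrane of capillaries and depend on PDGF-B, a ligand made by endothelial cells and received by the receptor PDGFR-beta on the pericyte. They take part in the blood-brain barrier and in capillary tone. Smooth muscle cells contract through smooth muscle actin and myosin, and the genes of that apparatus are controlled by serum response factor (SRF) with its coactivator myocardin, which bind DNA elements known as CArG boxes. Notch3, on the surface of both cell types, acts through the DNA-binding protein RBPJ.

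Of the 9 genes, 5 had a start in the RefSeq table (Rgs5, Abcc9, Vtn, Anpep and Acta2; build GRCm38.p6), and the 250 bases before each start were searched for these elements on both strands. A CArG box is written CCNNNNNNGG, with A or T at each of the 6 central bases. None of the 5 windows held this form, which was present in 1.47% of the 32851 windows in the table. The form with at least 5 of the 6 central bases A or T was found at 2 places before Acta2 and at 0 places before the other 4 genes. That form was present in 8.59% of all windows, and at 2 or more places in 0.670%. The RBPJ core, TGGGAA, was found once before Acta2, Vtn and Abcc9 each and in 21.6% of all windows. The match before Acta2, which began at position -27, overlapped the second CArG-like stretch. Such a match is a run of letters and not a measured binding site. Both stretches of Acta2, the gene with the highest fitted change with age among the 9, are shown with 10 bases on either side and the CArG-like bases in capitals, on the minus strand, which is the strand of the gene. The annotation of GENCODE starts the gene upstream of the RefSeq start, at 34255590, and so places both stretches inside it.
Acta2 site 1 (positions -84 to -75, chr19:34255438-34255467): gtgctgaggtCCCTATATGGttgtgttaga
Acta2 site 2 (positions -34 to -25, chr19:34255388-34255417): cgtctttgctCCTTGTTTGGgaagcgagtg

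The window before Rgs5, the most abundant of the 9 genes, held neither element and is shown in full for contrast, on the plus strand at chr1:169655251-169655500.
Rgs5 upstream: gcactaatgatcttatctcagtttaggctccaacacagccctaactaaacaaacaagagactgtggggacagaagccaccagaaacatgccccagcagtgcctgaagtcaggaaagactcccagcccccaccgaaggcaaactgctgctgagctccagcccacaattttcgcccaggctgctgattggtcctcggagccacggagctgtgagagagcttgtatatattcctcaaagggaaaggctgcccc

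The libraries held 29495379 to 36494240 counts each. At least 1 count fell on 33974 to 35651 genes in the 6-month-old cortices and on 40208 to 43561 genes in the 24-month-old cortices. Ages were compared with the quasi-likelihood test of edgeR on counts scaled by TMM, a method that sets libraries to a common level over most genes. In this comparison the median log2 fold change of the 18619 genes with a mean of at least 1 TPM (a level corrected for gene length and library size) was -0.12, which is the level against which the values below can be read. Scaling by library totals alone moved it to 0.07. The 6 markers of cortical neurons were found in every library at a summed level of 630.1 to 760.6 TPM. Of these, 2 were lower at 10% FDR and the median log2 fold change was -0.34. Of 7 general neuron markers, 2 were likewise lower, with a median of -0.31. Among the 24-month-old mice, mouse 2 stood apart, with oligodendrocyte markers at 800.3 TPM in sum against 1357 to 2484 TPM in the other 5 mice.

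None of the 9 genes (0 of 9) passed an FDR of 1%, and none (0 of 9) passed 10% or had an unadjusted p under 0.05. Over the 32905 genes tested, 0% passed 1%, 10.0% were higher and 8.33% lower in old adults at 10%, and 30.7% had a p under 0.05. The 6 pericyte genes had fitted log2 fold changes between -0.25 and 0.10, with a median of -0.03. The 3 smooth muscle genes had fitted log2 fold changes of 0.38 to 0.72, with a median of 0.60. That median is the value of Tagln, the gene with the fewest counts. Scaling by library totals alone gave medians of 0.15 and 0.79, so that the sign of the pericyte median depends on the scaling. All 9 intervals included 0. The same genes nevertheless differed widely between single mice, mainly between the 3 old adults.

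By mean TPM over the 6 mice, Rgs5 came first (152.2 TPM), followed by Vtn (58.7), Acta2 (15.6), Higd1b (13.9), Pdgfrb (9.84), Anpep (4.80), Myh11 (2.54), Abcc9 (2.43) and Tagln (0.834). Rgs5 lay above Vtn, and Vtn above all the others, in every library. The ranges of Acta2, Higd1b and Pdgfrb over the mice overlapped, as did those of Anpep, Myh11 and Abcc9. Within each library, however, Higd1b lay above Pdgfrb, and Anpep lay above Myh11 and Abcc9. Tagln was below all other members in every library. Rgs5 ranked 1171 of the 55421 genes by mean TPM, whereas Tagln ranked 19897.

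**Figure D1:**
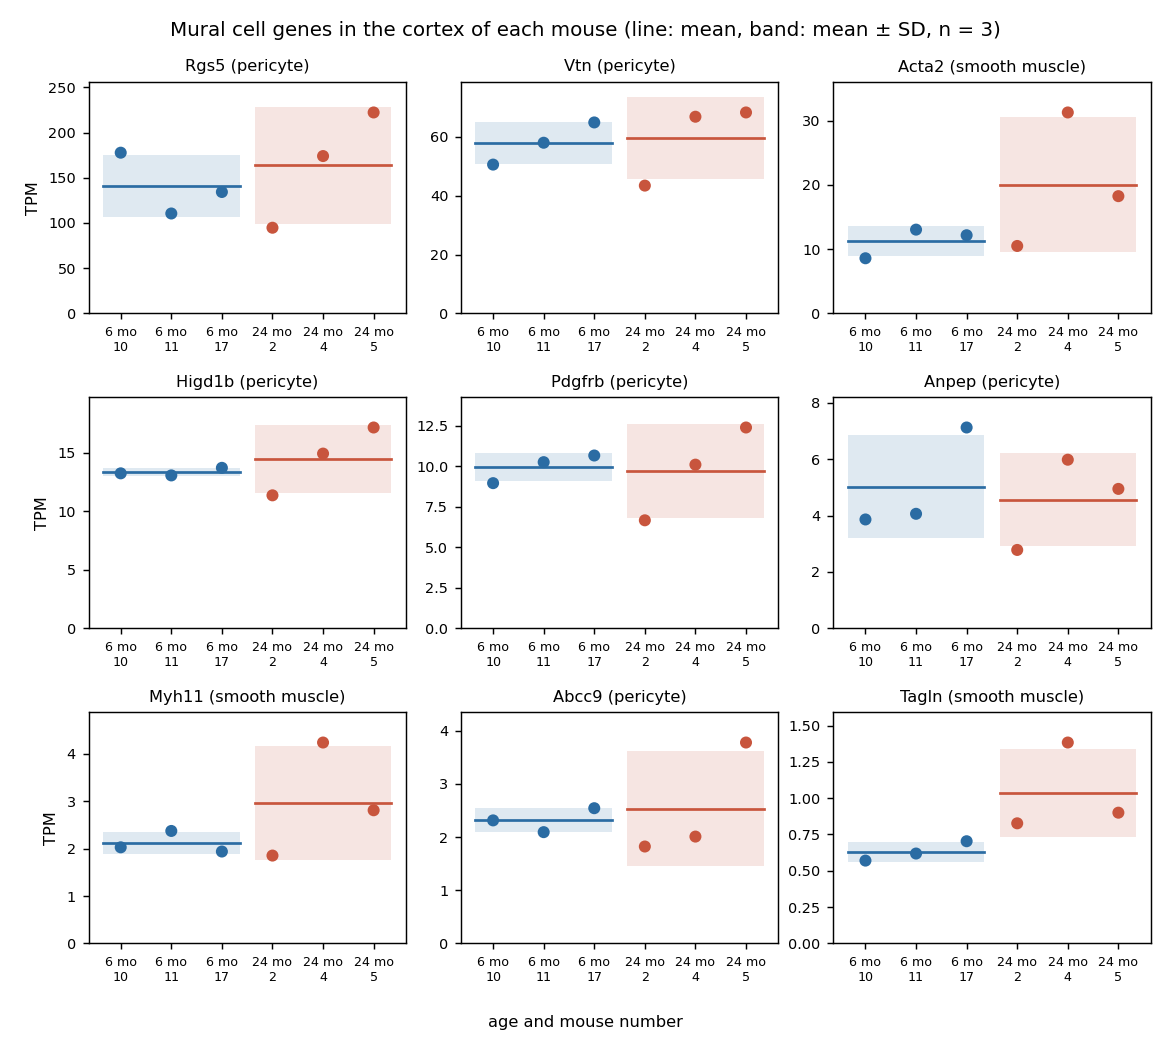
Levels of the 9 genes in TPM (vertical axes, each from 0) in the cortex of each mouse (horizontal axes, age and mouse number), with lines at the mean and bands of 1 SD for each age (n = 3). Tagln is the single panel in which the old adults lie above all young adults; in the panels of the pericyte genes, 24-month-old mouse 2 is the lowest point.

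Rgs5 encodes a regulator that shortens signaling by G protein-coupled receptors and is a classical marker of brain pericytes (ENSMUSG00000026678.10, chr1:169655501-169695813). Its level was 177.7, 110.4 and 134.2 TPM in 6-month-old mice 10, 11 and 17, and 94.7, 174.0 and 222.2 TPM in 24-month-old mice 2, 4 and 5. The old adults held both the lowest and the highest value, and the groups overlapped over most of their range. The means were 140.8 ± 34.1 TPM at 6 months and 163.6 ± 64.4 TPM at 24 months (SD, n = 3 each). On the log2 scale the fitted fold change was 0.10 (95% interval -0.50 to 0.71, adjusted p = 0.821).

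Vtn encodes vitronectin, an adhesive glycoprotein that brain pericytes secrete into the basement membrane (ENSMUSG00000017344.4, chr11:78499091-78502324). It was measured at 50.6, 58.0 and 64.9 TPM in young adults and at 43.4, 66.9 and 68.3 TPM in old adults. Old adult mice 4 and 5 lay slightly above all young adults and mouse 2 below them. The log2 fold change was -0.07 (95% interval -0.46 to 0.31, adjusted p = 0.803), the narrowest interval of the 9 genes.

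Pdgfrb encodes the receptor that binds PDGF-B (ENSMUSG00000024620.11, chr18:61045150-61085061). Young adults had 8.96, 10.3 and 10.7 TPM, and old adults had 6.67, 10.1 and 12.4 TPM. The spread was wider at 24 months (9.72 ± 2.88 TPM) than at 6 months (9.96 ± 0.890 TPM), around nearly equal means. Its fitted log2 fold change was -0.15 (95% interval -0.59 to 0.30, adjusted p = 0.638).

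Higd1b encodes a small protein of the HIG1 family of mitochondrial membrane proteins (ENSMUSG00000020928.14, chr11:102835849-102838040). It had 13.2, 13.1 and 13.7 TPM at 6 months, the tightest group of any of these genes relative to its mean, and 11.4, 14.9 and 17.2 TPM at 24 months. The old adults thus lay on both sides of the young adults, and the fitted log2 change was 0.01 (95% interval -0.41 to 0.42, adjusted p = 0.983).

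Abcc9 encodes SUR2, the regulatory subunit of the ATP-sensitive potassium channel of mural cells (ENSMUSG00000030249.15, chr6:142587862-142702315). It had 2.31, 2.09 and 2.54 TPM in young adults and 1.82, 2.01 and 3.78 TPM in old adults, which rest on 130 to 283 counts per library. Mouse 5 alone was above the young adults, and the other two old adults were below them. The log2 fold change was 0.02 (95% interval -0.56 to 0.59, adjusted p = 0.972). Without mouse 5 it was -0.38 (adjusted p = 0.145).

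Anpep encodes aminopeptidase N, also called CD13, a peptidase on the surface of pericytes (ENSMUSG00000039062.15, chr7:79821803-79861059). It had 3.86, 4.07 and 7.13 TPM at 6 months and 2.78, 5.99 and 4.95 TPM at 24 months. One young adult, mouse 17, held the highest value and 1 old adult, mouse 2, the lowest. The log2 fold change was -0.25 (95% interval -0.92 to 0.43, adjusted p = 0.604), and without mouse 17 it was 0.09.

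Among the smooth muscle genes, Acta2 encodes the alpha actin of smooth muscle (ENSMUSG00000035783.9, chr19:34241090-34255590). It was measured at 8.57, 13.0 and 12.1 TPM in 6-month-old mice 10, 11 and 17, and at 10.5, 31.3 and 18.2 TPM in 24-month-old mice 2, 4 and 5. Mice 4 and 5 lay above all young adults, while mouse 2 lay within the young adult range. The means were 11.2 ± 2.36 TPM and 20.0 ± 10.5 TPM. The log2 fold change was 0.72 (95% interval -0.02 to 1.46), with an unadjusted p of 0.0560 by the quasi-likelihood test of edgeR and an adjusted p of 0.173. It rested largely on mouse 4, without which it was 0.24, and it was 1.04 without mouse 2 (adjusted p = 0.109). Actg2, which encodes a near-identical actin, could share reads with Acta2, and its own level was at most 0.905 TPM in any library. The part of shared reads in the values of Acta2 was not tested.

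Myh11 encodes the heavy chain of smooth muscle myosin (ENSMUSG00000018830.10, chr16:14194535-14291372). It had 2.03, 2.37 and 1.94 TPM in young adults and 1.85, 4.24 and 2.81 TPM in old adults. As for Acta2, mouse 4 was highest and mouse 5 next, but mouse 2 lay just below all young adults rather than among them. Its fitted log2 fold change was 0.38 (95% interval -0.21 to 0.96, adjusted p = 0.347), and 0.03 without mouse 4.

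Tagln encodes transgelin, also called SM22, an actin-binding protein of smooth muscle (ENSMUSG00000032085.5, chr9:45929619-45936058). It was the only one of the 9 genes whose 3 old adult values (0.827, 1.38 and 0.900 TPM) all exceeded the 3 young adult values (0.570, 0.619 and 0.704 TPM). Over all genes tested, 20.0% were arranged this way and 16.3% in the opposite way, so that 1 of 9 is no more than the background. Fitted on the log2 scale, the fold change was 0.60 (95% interval -0.15 to 1.35, adjusted p = 0.244). These values rest on few reads, with 10, 12 and 13 counts in young adults and 14, 25 and 16 in old adults. A predicted gene on the opposite strand, Gm48529, shares 1241 exonic bases with Tagln and had 5 to 16 counts. Pcsk7, also on the opposite strand, shares 108 exonic bases with Tagln and had 673 to 915 counts over the whole gene. Reads in these shared stretches cannot be told apart where strand was not used in counting. The mean level of 1772 olfactory and vomeronasal receptor genes, which the cortex is not known to use broadly, was 0.0727 to 0.0832 TPM at 6 months and 0.195 to 0.316 TPM at 24 months. The part of that difference in the value of Tagln was not tested.

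**Figure D2:**
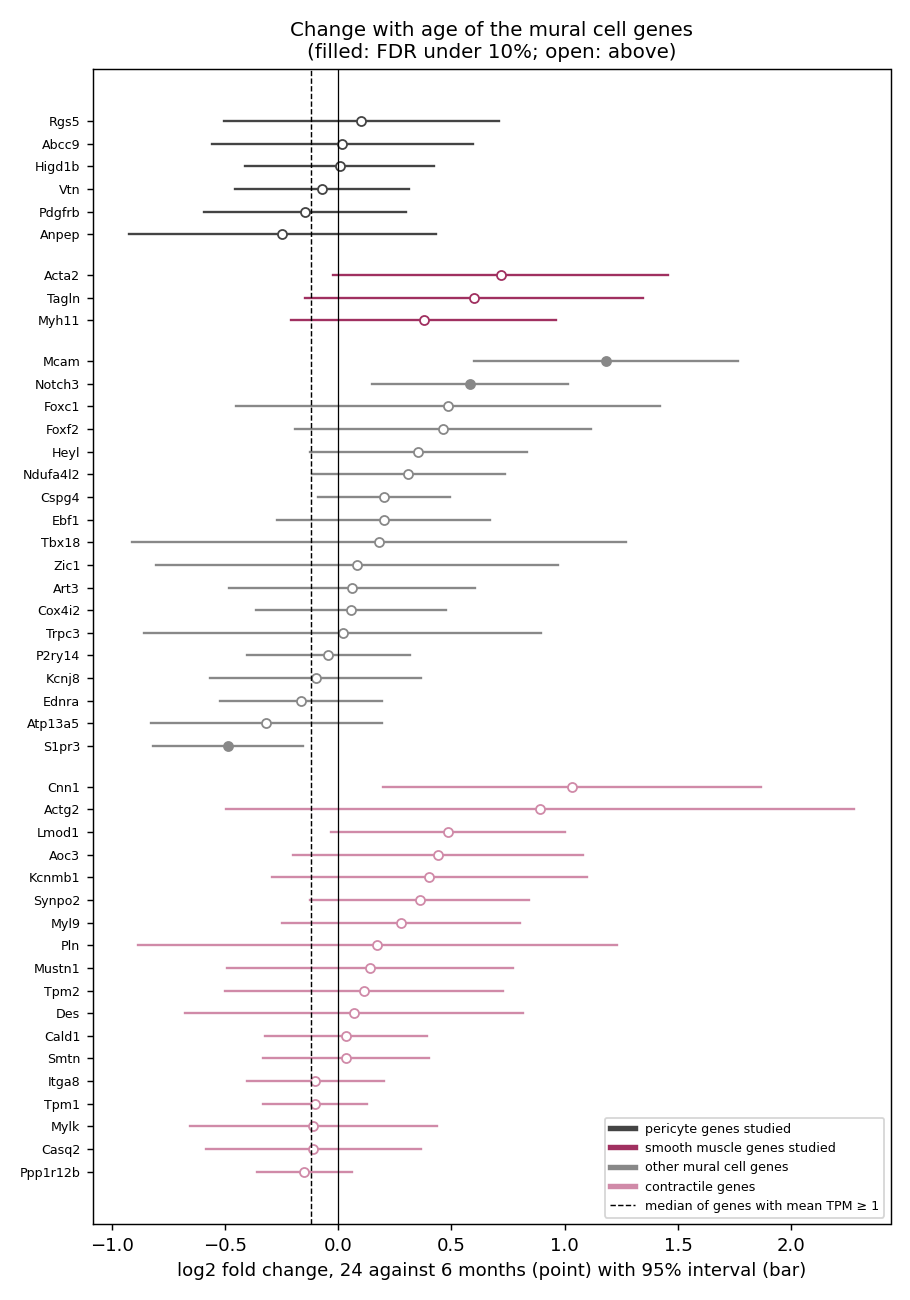
Log2 fold changes of 24 against 6 months (horizontal axis, points) with 95% intervals (bars) for the 9 genes, 18 other mural cell genes and 18 contractile genes. Filled points passed 10% FDR (Mcam and Notch3 higher, S1pr3 lower), open points did not, and the dashed line marks the median of -0.12 of genes with a mean of at least 1 TPM.

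The libraries were then compared across genes. On TMM-scaled CPM (counts corrected for library size only), 24-month-old mouse 2 had the lowest value of all 6 mice for 6 of the 6 pericyte genes. The highest value was in 24-month-old mouse 5 for 4 of them (Pdgfrb, Rgs5, Abcc9 and Higd1b) and in 6-month-old mouse 17 for Vtn and Anpep. For the smooth muscle genes the highest value was in 24-month-old mouse 4 for 3 of 3. The mouse with the highest value was therefore not the same for both cell types.

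Averaged over the 6 pericyte genes, log2 CPM centred on each gene's mean was 0.01, -0.07 and 0.21 in 6-month-old mice 10, 11 and 17. In 24-month-old mice 2, 4 and 5 it was -0.54, 0.08 and 0.33. The 10 endothelial markers, which label the inner lining of the same vessels, gave -0.03, 0.00 and 0.14 in the young adults and -0.43, 0.06 and 0.26 in the old adults. Pericyte and endothelial genes were therefore low in the same old adult and high in the same one. None of the 10 endothelial markers (0 of 10) passed 10% FDR, and their median log2 fold change was -0.04. The oligodendrocyte markers were likewise lowest in mouse 2 (-1.05 on the same scale) and highest in mouse 5 (0.54). Mouse 2 was also lowest for red blood cell markers (-0.55), fibroblast and meningeal markers (-0.70) and general neuron markers (-0.30), but not for choroid plexus markers (0.13). The fibroblast and meningeal markers were nearly as low in 6-month-old mouse 10 (-0.55). The part of these lists in the low pericyte values of mouse 2 was not tested.

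The 3 smooth muscle genes gave -0.40, -0.11 and -0.18 in young adults and -0.31, 0.83 and 0.19 in old adults, with mouse 4 far above the other 5. The 10 fibroblast and meningeal markers were also highest in mouse 4, at 0.69, but nearly as high in 6-month-old mouse 17, at 0.61, where the smooth muscle genes were below their mean. Of these 10 markers 0 passed 10% FDR, with sums of 31.9 to 81.5 TPM in young adults and 34.3 to 96.4 TPM in old adults. The part of adhering meninges and their large vessels in the values of mouse 4 was not tested.

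**Figure D3:**
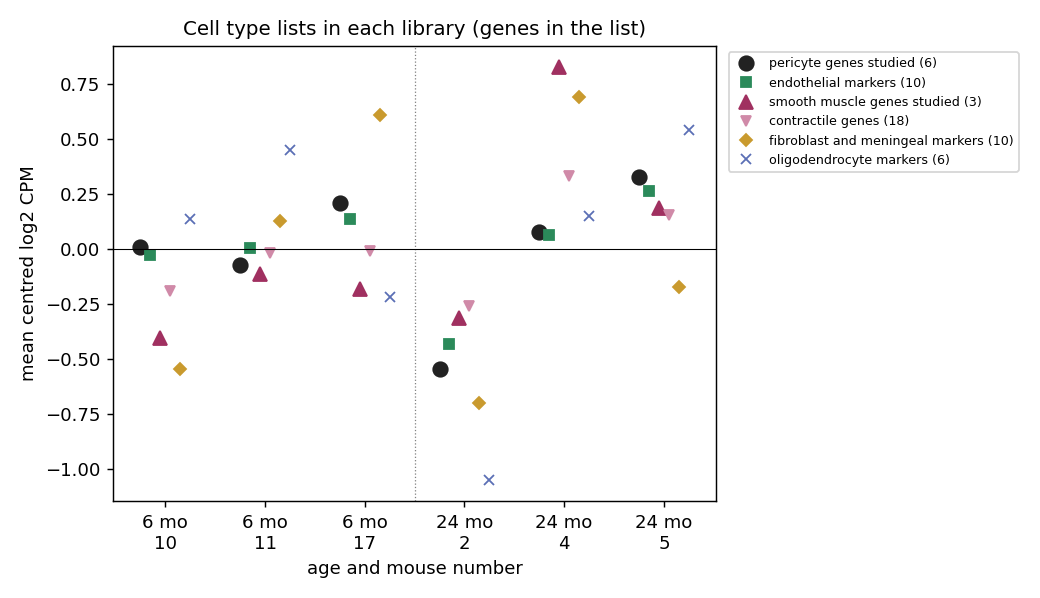
Mean log2 CPM of 6 lists of genes, each gene centred on its own mean over the 6 libraries (vertical axis), in each mouse (horizontal axis). Pericyte genes and endothelial markers lie close together in every library, lowest in 24-month-old mouse 2 (-0.54 and -0.43), whereas the smooth muscle genes peak in mouse 4 at 0.83.

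Ratios within a library do not depend on how libraries are scaled to each other. The mean log2 TPM of the pericyte genes minus that of the endothelial markers was -0.51, -0.63 and -0.48 in young adults and -0.66, -0.54 and -0.49 in old adults. This difference averaged -0.54 ± 0.08 at 6 months and -0.56 ± 0.09 at 24 months (SD, n = 3), and stayed within a narrow band although the pericyte genes themselves ranged widely. The smooth muscle genes minus the pericyte genes gave -2.76, -2.38 and -2.73 in young adults and -2.10, -1.55 and -2.47 in old adults. The groups overlapped by a small margin, between mouse 5 and mouse 11. Acta2 minus Pdgfrb was -0.06, 0.34 and 0.19 at 6 months against 0.65, 1.63 and 0.56 at 24 months, and the smooth muscle genes minus the endothelial markers gave -3.27, -3.01 and -3.20 against -2.76, -2.08 and -2.95. In both of these ratios the old adults lay above all young adults, mouse 2 included. The margin of the second was narrow, at -2.95 in mouse 5 against -3.01 in mouse 11. The smooth muscle mean includes Tagln, which had 10 to 25 counts per library and was the only member without overlap between the ages. The part of Tagln in the ratios of that mean was not tested. These ratios share genes and were chosen with the single values known, so no test is given.

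To place the 9 genes among related ones, 101 genes in 11 lists of mural cell, contractile and signaling genes were read from the same comparison. Of the 100 tested, 9 passed an FDR of 10% (2 higher and 7 lower in old adults) and 0 passed 1%. As a share, 9% stands against 18.4% of all genes tested. Each of the 9 kept its direction in 13 of 13 alternative settings, but 0 passed 10% without 6-month-old mouse 10 or 11 or without 24-month-old mouse 4, and 1 passed without 24-month-old mouse 2. The calls over all genes were lost in the same settings, from 6040 to 0 without mouse 10, 1 without mouse 11, 0 without mouse 4 and 176 without mouse 2.

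Of 18 other mural cell genes, 2 were higher and 1 was lower at 10% FDR, with a median log2 fold change of 0.13 against -0.12 over the genes with a mean of at least 1 TPM, as all 18 had, and 0.15 over all genes tested. Mcam encodes CD146, an adhesion molecule and PDGFR-beta coreceptor of mural and endothelial cells. It had 1.79, 1.38 and 1.73 TPM in young adults and 2.56, 4.63 and 4.84 TPM in old adults, without overlap, for a log2 fold change of 1.18 (95% interval 0.60 to 1.77, adjusted p = 0.0526). This was the highest value of the list. Notch3, the Notch receptor of mural cells, rose from 1.42, 1.53 and 1.89 TPM to 2.19, 2.41 and 3.24 TPM (log2 fold change 0.58, adjusted p = 0.0872). S1pr3, a receptor for the lipid sphingosine-1-phosphate, was lower in all old adults (8.18, 10.2 and 12.1 TPM) than in young adults (12.8, 13.7 and 12.9 TPM), and its log2 fold change was -0.49 (adjusted p = 0.0740). Heyl, a transcription factor downstream of Notch3, had a log2 fold change of 0.35 (adjusted p = 0.285). Kcnj8, the pore of the same potassium channel as Abcc9, had -0.10 (adjusted p = 0.772), and Cspg4, which encodes the NG2 proteoglycan, had 0.20 (adjusted p = 0.316). Mcam, which was the furthest from 0, was higher in mouse 2 than in any young adult, although all 6 pericyte genes were lowest there.

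Of 18 contractile genes beyond the 3 described, 0 passed 10% FDR, 13 had a fitted value above 0 and the median was 0.13, which reads against the same -0.12 and 0.15. Cnn1, which encodes the smooth muscle calponin, came nearest, with 0.704, 0.674 and 0.747 TPM in young adults and 1.03, 2.53 and 1.14 TPM in old adults. Its groups did not overlap, and its log2 fold change was 1.03 (95% interval 0.20 to 1.87, adjusted p = 0.104), or 0.51 without mouse 4. Cnn1 also rests on few reads, with 17, 18 and 19 counts in young adults and 24, 63 and 28 in old adults. The part of the receptor gene difference described with Tagln was not tested here either. Lmod1, an actin nucleator of smooth muscle, had a log2 fold change of 0.49 (adjusted p = 0.184). Myl9, the regulatory light chain of smooth muscle myosin, was measured at 27.8, 37.8 and 35.1 TPM against 30.0, 61.4 and 40.5 TPM. By TPM the 6 mice came in the same order as for Acta2, with mouse 4 highest and mouse 2 among the young adults. On TMM-scaled CPM, Myl9 was instead lowest in mouse 2 (9.15 against 9.25 in 6-month-old mouse 10). On that scale 6-month-old mouse 11 (12.40) also lay just above mouse 5 (12.38). Myl9 had a log2 fold change of 0.28 (adjusted p = 0.441). Tpm1, a tropomyosin used in many cell types, showed no such order, with 171, 161.2 and 175.5 TPM against 193, 166.2 and 152.5 TPM.

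Of the 4 regulators of these contractile genes, 1 passed 10% FDR. Mrtfa, a coactivator of SRF found in many cells, was lower at 10% FDR, with 36.1, 35.8 and 34.8 TPM in young adults and 25.4, 30.6 and 33.4 TPM in old adults (log2 fold change -0.37, adjusted p = 0.0761). Myocd, the myocardin of muscle, had 0.247, 0.287 and 0.368 TPM against 0.548, 0.462 and 0.418 TPM (log2 fold change 0.54, adjusted p = 0.209). The old adults lay above the young adults for Myocd, as they did for the mean of the receptor genes described with Tagln, whose part in this was not tested. Srf itself had a log2 fold change of 0.06 (adjusted p = 0.839).

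Among PDGF ligands and the alpha receptor, 1 of 5 genes passed 10% FDR. Pdgfc, a ligand of the alpha receptor, was measured at 7.62, 7.98 and 7.06 TPM in young adults and at 6.18, 6.20 and 4.70 TPM in old adults, and its log2 fold change was -0.52 (adjusted p = 0.0646). Pdgfb, the ligand of Pdgfrb, had 13.3, 15.8 and 17.2 TPM against 18.5, 14.8 and 10.8 TPM. Its highest TPM was in mouse 2 and its lowest in mouse 5, where Pdgfrb was lowest and highest. On TMM-scaled CPM, Pdgfb was instead highest in 6-month-old mouse 17 (20.3 against 20.2 in mouse 2). The log2 fold change of Pdgfb was -0.19 (95% interval -0.60 to 0.23, adjusted p = 0.522).

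In the Notch pathway 0 of 11 genes passed 10% FDR, and 1 higher and 3 lower had an unadjusted p under 0.05. Over all genes tested, 30.7% had such a p. The higher one was Jag1, a ligand that smooth muscle cells need to mature, at 4.51, 4.27 and 6.94 TPM against 6.11, 9.06 and 8.87 TPM (log2 fold change 0.50, adjusted p = 0.152). Hes1 and Hey1, targets of Notch, had log2 fold changes of -0.31 and -0.22 (adjusted p = 0.148 and 0.149).

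In angiopoietin and TGF-beta signaling, 0 of 15 genes were higher and 2 were lower at 10% FDR. Angpt1 encodes angiopoietin-1, a ligand from mural cells, neurons and others that steadies the endothelium through the receptor Tek. It fell from 5.03, 4.82 and 4.96 TPM to 2.62, 4.14 and 2.73 TPM, with a log2 fold change of -0.75 (95% interval -1.18 to -0.33, adjusted p = 0.0567). The old adults were below all young adults. Over 13 alternative settings the value ran from -0.99 (without mouse 4, where the call was lost) to -0.53, and it passed 10% FDR in 5 of them. Smad3, which carries TGF-beta signals to the nucleus, had a log2 fold change of -0.35 (adjusted p = 0.0570). Eng and Acvrl1, co-receptor and receptor of the endothelium, had 0.33 and 0.30 (adjusted p = 0.155 and 0.157), without overlap between the ages.

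The relatives of the pericyte genes were read in the same way. Rgs4, of the same R4 family as Rgs5 and known mainly from neurons, fell by 0.70 on the log2 scale (adjusted p = 0.0518) while Rgs5 had 0.10. Abcc8, which encodes SUR1, the relative of the Abcc9 product found in neurons, fell by 0.50 on the log2 scale (adjusted p = 0.0737). The other HIG1 genes tested, Higd1a and Higd2a, had log2 fold changes of -0.21 and -0.27 (adjusted p = 0.155 and 0.106). Of 8 partners of vitronectin (integrins and the plasminogen activator system) and of 9 genes of the angiotensin system, in which aminopeptidase N acts, 0 passed 10% FDR. The part of the lower neuron markers in the values of Rgs4 and Abcc8 was not tested, nor were the differences between the members and these relatives.

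**Figure D4:**
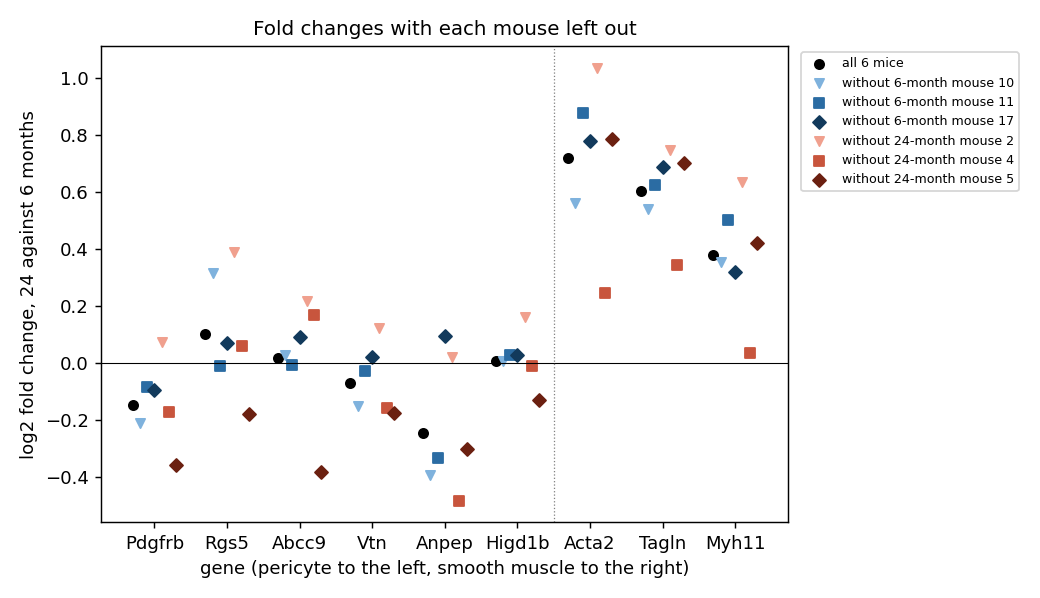
Log2 fold changes of 24 against 6 months (vertical axis) of the 9 genes (horizontal axis) in all 6 mice and with each mouse left out. The pericyte genes lie on both sides of 0, between -0.48 and 0.39, while the 3 smooth muscle genes stay above 0 and drop most without mouse 4 (Acta2 0.24, Tagln 0.34 and Myh11 0.03).

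The alternative settings, among them each mouse left out, changed the sign of pericyte genes but not of smooth muscle genes. With all 6 mice the fitted values were -0.25 to 0.10 for the pericyte genes and 0.38 to 0.72 for the smooth muscle genes. Each of the pericyte genes changed sign in at least 2 of 13 alternative settings, with values between -0.48 (Anpep without mouse 4) and 0.39 (Rgs5 without mouse 2). The smooth muscle genes kept a positive value in every setting in which they were fitted, between 0.03 (Myh11 without mouse 4) and 1.04 (Acta2 without mouse 2). The lowest adjusted p of any member in any setting was 0.109, for Acta2 without mouse 2.

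Genes with a similar course over the 6 libraries were looked up among 18611 genes with a mean of at least 1 TPM, by the root mean square distance between log2 CPM profiles scaled to mean 0 and SD 1. Nearest to the mean of the pericyte genes were Suclg2 (distance 0.140), Zranb3 (0.152), Pld1 (0.153), Cdh19 (0.167) and Nefh (0.168), against a median distance of 1.21. Higd1b was the member closest to that mean (0.227) and Anpep the furthest (0.602). None of the 5 nearest is a gene of the mural lists, and their adjusted p-values for age were 0.772 to 0.951. Nearest to the mean of the smooth muscle genes were Gm5602 (0.161), Irf5 (0.194), Clec1a (0.214), AB041806 (0.222) and Gm22738 (0.239), against a median of 1.49. Acta2 itself lay at 0.163, Myh11 at 0.311 and Tagln at 0.356. For both cell types each member is part of the mean it was compared with, which lowers its distance in advance. The distances of members and of other genes are therefore not alike. With 6 libraries, many genes can share a course, and the likeness is given as a description only.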

How the data were processed

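Cortex RNA of 6 male mice (3 per age) had been sequenced. Per the labels and the study's methods, the authors trimmed reads with Trim Galore 0.6.4, mapped them to GRCm38 (mm10) with STAR 2.7.3a and counted them on exons with featureCounts (Subread 2.0.0), and no strand option is named. The authors deposited 1 count and 1 TPM per mouse over 55421 genes. All deposited counts were whole (100%) and were used unrounded, although the stated counting options would split a read with several positions into fractions, so how reads shared by near-identical genes were counted is not known.

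Differential expression was tested with edgeR 4.0.16 (R 4.3.3): TMM, a minimum of 10 counts per gene summed over mice, quasi-likelihood test, Benjamini-Hochberg over all genes tested. FDR of 1% is the study's threshold, and 10% was added. TPM gave levels, and log2 CPM used a prior count of 2. Alternatives were library totals, DESeq2 1.42.0 (size factors and Wald test), the likelihood ratio test, 2 filters, limma 3.58.1 on log2(TPM + 1), and each mouse left out. Scripts were tested on simulated data. Python 3.11.15 with pandas 2.3.3 and numpy 2.4.6 served for the rest. Each library is 1 mouse.

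Genes, lists and the naming rule (in each list the 4 genes of smallest p and those of at least 10 TPM, for each cell type the 5 nearest genes) were chosen with earlier results of these data known. Not every list gene under this rule is named above, and Cspg4 and Actg2 were named outside it. Positions are from GENCODE vM21, whereas the authors counted on vM23. At 29495379 to 36494240 counts per library, Tagln had 10 to 25 counts.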

Additional observations from a re-analysis of the deposited data

How the results depend on the processing

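With 0 of 9 genes past 1% or 10% FDR in every setting, the calls of the members did not move. At an unadjusted p under 0.05 the count of members was 0 in the quasi-likelihood test of edgeR, 1 with DESeq2 size factors, the DESeq2 Wald test, the likelihood ratio test or the filter of at least 1 count (Acta2), 2 with library totals only or filterByExpr (Acta2 and Tagln), and 0 to 2 with each mouse left out. The median log2 fold change of the pericyte genes (-0.03) turned positive with library totals (0.15), filterByExpr (0.078), the filter of at least 1 count (0.0037) and limma on TPM (0.037), and ran from -0.24 to 0.14 with each mouse left out. The median of the smooth muscle genes (0.60) ran from 0.24 to 0.75 with each mouse left out and was 0.79 with library totals.

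Single pericyte genes reversed as follows. Pdgfrb was 0.036 with library totals and ran from -0.36 to 0.072 with each mouse left out (positive without 24-month mouse 2). Vtn was 0.11 with library totals, 0.039 with filterByExpr and 0.020 with limma, and ran from -0.18 to 0.12 (positive without 6-month mouse 17 or 24-month mouse 2). Anpep ran from -0.48 to 0.094 (positive without the same mice), Rgs5 from -0.18 to 0.39 and Abcc9 from -0.38 to 0.22 (both negative without 6-month mouse 11 or 24-month mouse 5), and Higd1b from -0.13 to 0.16 (negative without 24-month mouse 4 or 5).

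Of the list genes, the 9 past 10% FDR became 3 with filterByExpr, 0 with limma and 0 to 11 with each mouse left out. Over all genes tested, 6040 became 1538 of 20490, 24 of 18904 and 0 to 7998. The 20 at a p under 0.05 became 13 with the likelihood ratio test, 13 with limma and 9 to 27 with each mouse left out, where all genes went from 10097 to 10149, 3371 and 6654 to 10635. At 1% FDR 2 list genes (Mcam and Rgs4) passed in the Wald and likelihood ratio tests, against 0 in the quasi-likelihood test. Over all 32905 genes these tests passed 227 and 1703. The causes of these moves were not tested. Tagln was left out by the minimum of 1 TPM for limma. No paired analysis was possible because the ages share no mouse number.

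Tagln had the fewest counts of the 9 genes, 10 to 25 per library. With 3 mice per age, all 9 intervals at 95% include 0.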
